A study of Drosophila melanogaster with 2 samples.

Results

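The genes described here are y (yellow), ac (achaete), sc (scute), l(1)sc (lethal of scute) and ase (asense), 5 neighbouring genes near the tip of the X chromosome of Drosophila melanogaster, and the peaks of mod(mdg4)-GFP around them. The members were chosen by name. Their region was taken from the start of y to the end of ase with 10 kb added on each side, chrX:346509-473176 on dm6, and it spans 127 kb or 0.538% of the X chromosome. The region holds 3 of the 6273 summits (the highest points of peaks) on the chromosome arms in the list that passed the authors' irreproducible discovery rate (IDR) threshold, called thresholded here. It holds 37 of the 29999 summits in the unthresholded list made from both replicates pooled, called the pooled list. The members are 5 of 13945 protein-coding genes on the 6 chromosome arms.

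Binding was measured by chromatin immunoprecipitation and sequencing (ChIP-seq) with an antibody against GFP, in whole animals of both sexes, taken as wandering larvae in the third instar. All larvae came from 1 transgenic line that stably expresses mod(mdg4) with GFP at its C-terminus, so forms of the protein without the tag were not measured, and the larvae's age beyond the stage is not given. The 2 biological replicates carry the numbers 3 and 4 and form a single group, with no other condition. Whole animals were used, so strong binding in few cells and weak binding in many cells cannot be told apart. The lists give a signal per peak, read here as the caller's enrichment on a scale of its own list, and no read counts, so depth is unknown. A signal from the pooled list has no replicate error of its own. Ranks count from 1 for the strongest peak of a list.

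The mod(mdg4) gene encodes many proteins that share a BTB domain, and one of them binds su(Hw), a zinc-finger protein that recognises DNA and forms insulators, elements that can keep an enhancer from acting on a promoter. The y gene is a classic test of this activity: the gypsy retrotransposon carries su(Hw) sites, and its insertion upstream of y cuts the promoter off from its wing and body enhancers unless su(Hw) is lost. An insulator bound by su(Hw) that belongs to the normal chromosome has also been described between y and ac. The y product is needed for black melanin in the cuticle, whereas ac, sc and l(1)sc encode proneural basic helix-loop-helix (bHLH) proteins that give cells the potential to become neural precursors, and ase encodes a related protein of the precursors themselves. The proneural genes share enhancers spread over a long stretch of DNA, and their proteins act with da at E-boxes.

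The 3 thresholded summits are shown first, because the sequence at the strongest of them holds a site of su(Hw). Each stretch reaches 100 bp to either side of a summit, on the plus strand of the RefSeq dm6 genome, and capitals mark the su(Hw) core, TGCATAC or TGCATAT on either strand. The first is chrX:361531-361731, just downstream of y. The second is chrX:444069-444269 and the third chrX:448436-448636, both between Pgcl and ase.
Summit downstream of y: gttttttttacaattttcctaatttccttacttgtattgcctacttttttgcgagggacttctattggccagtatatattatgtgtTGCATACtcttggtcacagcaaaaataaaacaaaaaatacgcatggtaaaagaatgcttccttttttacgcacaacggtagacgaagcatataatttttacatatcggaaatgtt
First summit between Pgcl and ase: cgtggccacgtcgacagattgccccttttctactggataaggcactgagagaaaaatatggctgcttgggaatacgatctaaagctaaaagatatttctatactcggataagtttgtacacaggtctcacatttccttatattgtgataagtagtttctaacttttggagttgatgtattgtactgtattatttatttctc
Second summit between Pgcl and ase: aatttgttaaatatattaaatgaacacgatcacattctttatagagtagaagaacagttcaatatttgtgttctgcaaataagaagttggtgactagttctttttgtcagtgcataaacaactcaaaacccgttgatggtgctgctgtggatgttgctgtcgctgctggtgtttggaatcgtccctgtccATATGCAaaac
The first stretch holds 1 core, at 11.0 bp from the summit, and the third holds 1 near its edge, on the minus strand. The second holds none.

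The strongest summit of the region lay between y and ac. It stood at X position 361631, 386 bp past the end of y, 768 bp before the start of yar and 8.40 kb before the start of ac, where yar is a noncoding RNA gene transcribed in the same direction. Its peak interval, 361469 to 361819, begins 224 bp past y. CG32816, a gene on the minus strand whose function is not named in the annotation, spans nearly the whole region, so the summit counts as intronic in it. The pooled signal was 958.5, at rank 115, with a -log10 q of 2.46, which is the ceiling of the list. The signal was 541.9 in replicate 3, at rank 127, and 416.6 in replicate 4, at rank 106. The replicate summits were 12 bp apart, and both replicates placed this peak near the top of their 29999.

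Each replicate has its own scale, so signals were divided by the replicate's median over the 6217 thresholded peaks found in both (116 in replicate 3 and 84.4 in replicate 4). The log2 ratio of replicate 4 over replicate 3 was then 0.09 at this summit. Across the 6217 peaks the same ratio had an SD of 0.611, so the replicates differed here by less than the usual spread. The summit was the 11th strongest of 1073 on X and the 97th of 6273 on the arms. Its pooled signal was 5.61 times that of the next summit in the region, and the same ratio was 4.85 in replicate 3 and 6.15 in replicate 4. It held 31.7% of the summed pooled signal of the region's 37 peaks. It exceeded the median of all thresholded peaks, 186, by 5.15-fold.

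**Figure D1:**
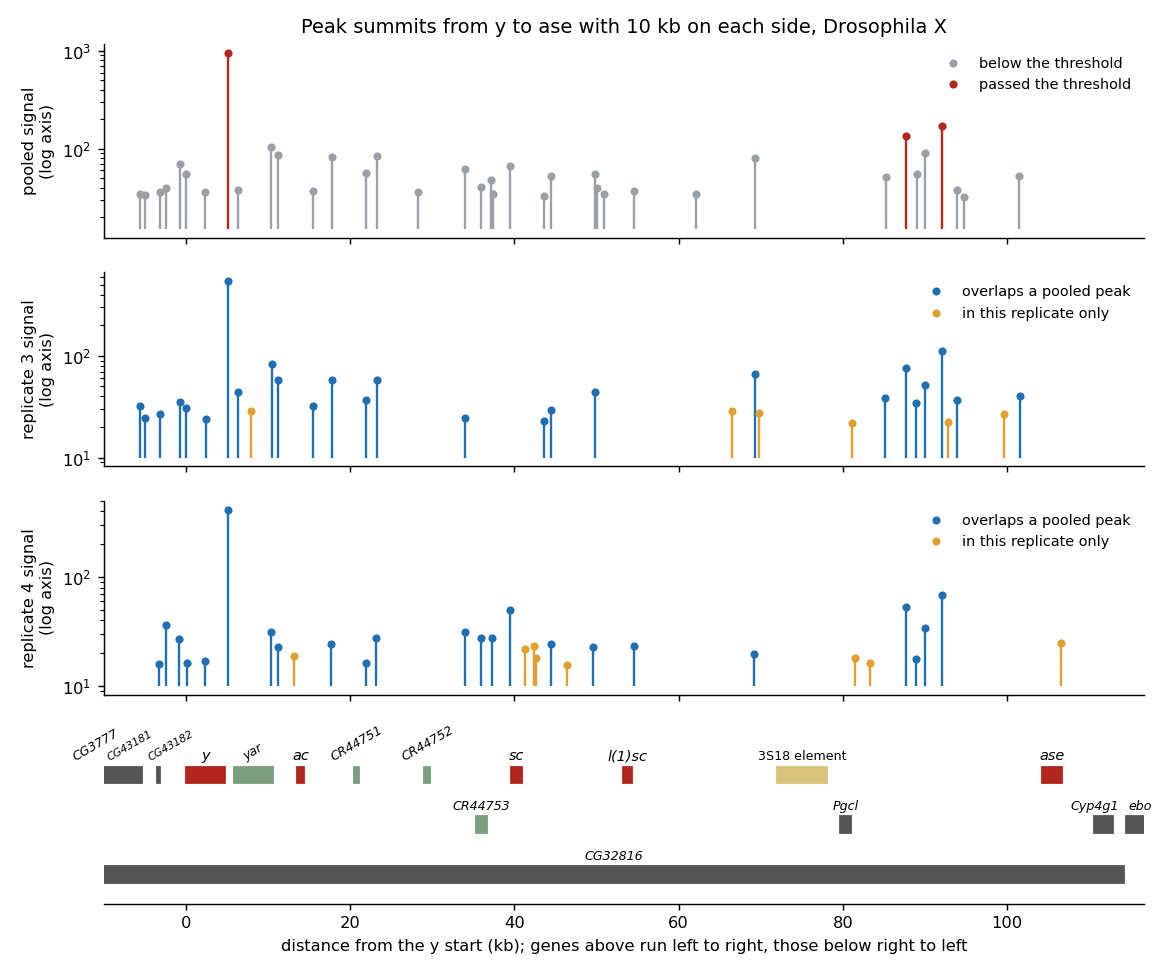
Summits from y to ase with 10 kb on each side, against the distance from the y start in kb, with signal on log axes that differ between the lists. Red sticks in the top panel mark the 3 thresholded summits, and the lower track shows genes, with the 5 members in red; the stick at 5.12 kb, just right of y, is the highest in all 3 panels.

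The summit downstream of y stood alone. The nearest other thresholded summit was 82.0 kb away, whereas the median over the 6273 arm summits was 2.22 kb. The list also counts pairs of summits about 0.2 kb apart, and these lower such medians. Only 35 arm summits (0.558%), 9 of them on X, lay at least as far from any other, and their median signal was 157. The 35 include summits in far sparser stretches, such as those at 489 kb on arm 2L and 201 kb on arm 2R. Position along the arm was not taken into account, so the 157 does not describe isolated summits in comparable surroundings. Of the 97 arm summits at least as strong as that downstream of y, itself included, no other lay as far from its nearest neighbour, and their median distance was 3.00 kb. The empty stretches were on both sides. To the left lay 82.0 kb without a thresholded summit, the 72nd longest of 1072 gaps on X. Of the genes that reach into the region, this stretch held CG3777, CG43181, CG43182 and y. Genes wholly outside the region were not listed. To the right, 82.5 kb held ac, sc, l(1)sc and Pgcl, and this was the 70th longest. The median gap on X was 5.34 kb.

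**Figure D2:**
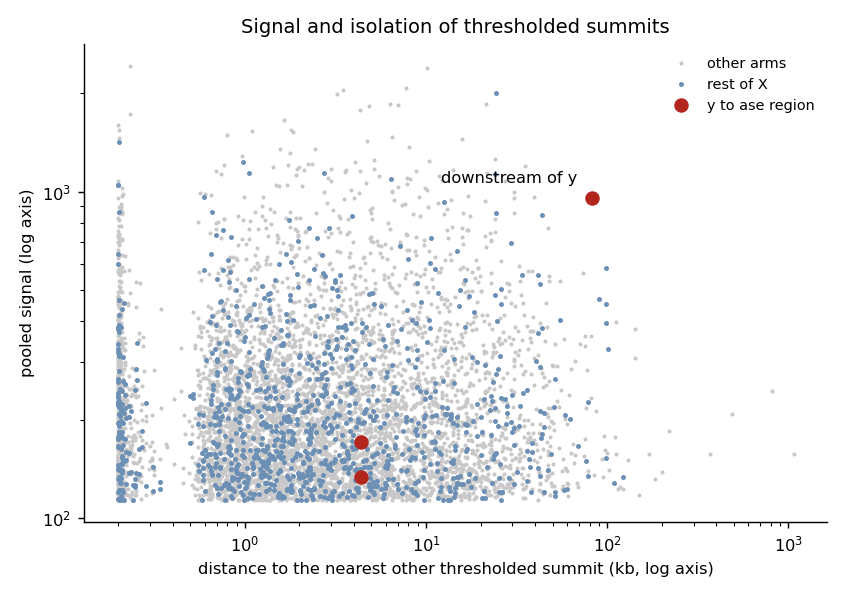
Pooled signal of each thresholded arm summit against its distance in kb to the nearest other one, both on log axes, with the 3 summits of the region in red. The summit downstream of y, at 82.0 kb and 958.5, has no summit above and to its right; the other red points lie 4.37 kb from each other.

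The other thresholded summits lay between Pgcl and ase, 4.37 kb apart, and both were below the median of the thresholded list, whose lowest signal was 113. The first, at X position 444169, had a pooled signal of 133.6 and rank 5104. It gave 75.8 in replicate 3 (rank 5918) and 53.1 in replicate 4 (rank 6426), a scaled log2 ratio of -0.05. It lay 6.72 kb upstream of Pgcl and 16.6 kb before ase. The second, at 448536, had a pooled signal of 170.8 and rank 3568. It gave 111.8 in replicate 3 (rank 3298) and 67.8 in replicate 4 (rank 4483), a scaled log2 ratio of -0.26. It lay 12.2 kb before ase, and both ratios were within 1 SD of 0. To the right of it, a stretch of 45.5 kb held no thresholded summit. Of the genes that reach into the region, this stretch contained ase, Cyp4g1 and ebo.

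All 3 thresholded peaks of the region were overlapped by at least 1 bp in both replicate lists, as were 98.8% of the thresholded peaks of the series. Among the strongest peaks of each replicate, as many as the threshold passed, 2 of the 3 were found in both, against 70.8% in the series, and the peak at 444169 missed the cut in replicate 4. The region held 2.37 thresholded summits per 100 kb, against 4.56 on X and 4.69 on the arms. In the pooled list it held 29.2 per 100 kb, against 21.8 on X and 22.4 on the arms. The rates for X and the arms use their full assembled lengths, 23.5 and 134 Mb. These include long stretches without thresholded summits, up to 807 kb on X and 3490 kb on the arms, which lower the rates. Of its 37 pooled summits, 3 (8.11%) passed the threshold, against 21.0% in the series. The region thus had more weak summits and fewer strong ones per length than X as a whole; no test was made, because it is 1 region.

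No member had a thresholded summit within 500 bp of its start, which is the distance used here for a promoter summit. Over all protein-coding genes 18.7% had one, and over genes with 1 annotated start, as each member has, 13.0% did. In the pooled list y and sc had one, so 2 of 5, against 35.3% of all genes. Replicate 3 gave a promoter summit at y alone, and replicate 4 gave one at y, ac and sc. No member therefore has a promoter summit that passed the threshold, and y was the single member with one in both replicates.

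At y (FBgn0004034, 356509 to 361245, plus strand), the promoter summit was weak in all lists. The pooled summit lay 72 bp downstream of the start, in the 5' UTR, with a signal of 54.7 and rank 15764, below the pooled median of 57.0. The nearest summit in replicate 3 lay 59 bp downstream, with a signal of 30.6 and rank 19902. In replicate 4 it lay 107 bp downstream, with a signal of 16.4 and rank 28341. The peak past the end of y was thus far above the one at its start in both replicates. A further pooled summit, 651 bp upstream of the start, had a signal of 69.3.

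At ac (FBgn0000022, 370031 to 370947, plus strand), summits lay on either side of the gene and were weak. The nearest pooled summit was 1.92 kb downstream of the start, with a signal of 36.5 and rank 25516, and replicate 3 had a peak there at 31.9. Replicate 4 had none there, and its promoter summit, 385 bp upstream at 18.8 (rank 24157), had no counterpart in the other lists. Upstream, the nearest summit found in both replicates lay 2311 bp before ac, with a pooled signal of 85.3, 58.1 in replicate 3 (rank 8596) and 22.7 in replicate 4 (rank 19257). Farther upstream, 3101 bp before ac and inside a noncoding exon of yar, lay the strongest summit of the region below the threshold. Its pooled signal was 103.5 (rank 7076), with 83.6 in replicate 3 (rank 5133) and 31.5 in replicate 4 (rank 12794), a scaled log2 ratio of -0.94. That ratio is beyond 1 SD, and the peak was relatively stronger in replicate 3.

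At sc (FBgn0004170, 396060 to 397497, plus strand), the promoter summit came from replicate 4. The pooled summit lay 73 bp upstream of the start, with a signal of 67.3 and rank 12339. Replicate 4 had it 111 bp upstream with a signal of 50.3 and rank 6897, and the nearest summit of replicate 3 was 4.01 kb away. The 201 bp window around this pooled summit held 9 matches to GAGAGA, counting overlapping ones, the letters recognised by GAGA factor, a protein of open promoters encoded by Trl. In the pooled list 9.84% of the 29973 arm windows held any match and 0.150% held as many. The cluster nearest to the summit is shown for its repeats, from chrX:395961-395990 on the plus strand of RefSeq dm6, 70 bp before sc, with capitals for the motif read on the minus strand.
Upstream of sc: TCTCTCTCTCTCttTCTCTCcgatTCTCTC
It holds 6 of the 9 matches, and the other 3 lay on the plus strand.

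At l(1)sc (FBgn0002561, 409721 to 410817, plus strand), the nearest pooled summit lay 268 bp past the end of the gene, with a signal of 37.3 and rank 24896. Replicate 4 had a peak there at 23.4 (rank 18517), and the nearest summit in replicate 3 was 3.16 kb from the start. At ase (FBgn0000137, 460747 to 463176, plus strand), the nearest pooled summit was 2.82 kb upstream, with a signal of 52.7 and rank 16504. Replicate 3 had it at 40.4 (rank 13870). Replicate 4 instead had a summit in the 3' UTR of ase at 24.9 (rank 17209). For neither gene was the nearest summit the same in both replicates. A weak summit found in both lay 3450 bp before l(1)sc, with a pooled signal of 54.5, 44.1 in replicate 3 and 22.6 in replicate 4.

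The distance to the nearest thresholded summit was 5.12 kb for y, 8.40 kb for ac, 12.2 kb for ase and 34.4 kb for both sc and l(1)sc. For y, ac and sc that summit was the one downstream of y. The median over all protein-coding genes was 7.47 kb, and 58.2% of genes lay farther than y, 47.2% farther than ac, 37.8% farther than ase and 12.5% farther than sc or l(1)sc. The distances of y and ac were thus near the middle of the genome, and those of sc and l(1)sc were long.

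**Figure D3:**
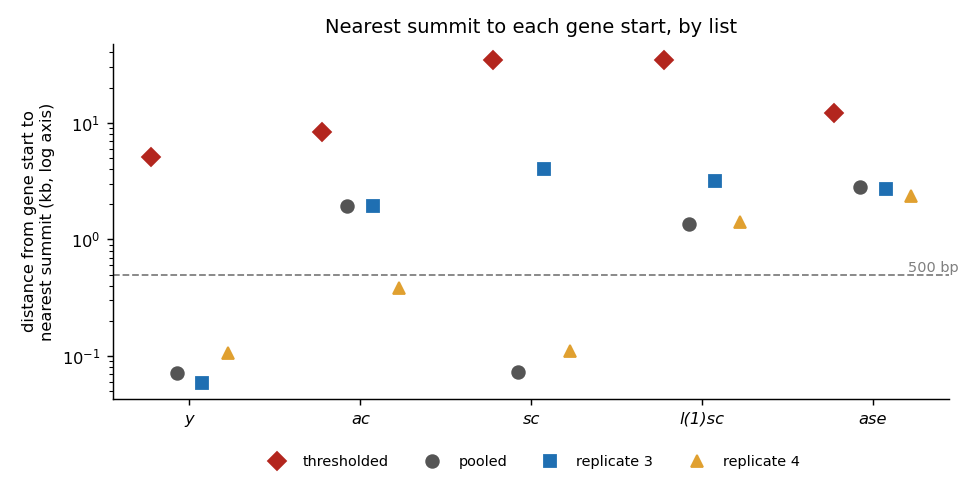
Distance in kb, on a log axis, from the start of each member to the nearest summit of the thresholded, pooled, replicate 3 and replicate 4 lists, with a dashed line at 500 bp. All 5 red diamonds (thresholded) lie above the line, from 5.12 to 34.4 kb; only y has the symbols of both replicates below it.

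Below the threshold lay 34 pooled summits with signals of 32.0 to 104 and a median of 44.5, of which 9 exceeded the pooled median. The stretch from ac to sc, where enhancers of both genes lie, held 10, with a highest signal of 84.3. The stretch from Pgcl to ase held 6 of the 34, that from sc to l(1)sc 5, and those from y to ac and from l(1)sc to Pgcl 3 each. Of the 37 pooled summits, 33 fell in introns, all of them counted for CG32816. Of the 37, 18 were overlapped in both replicates, against 66.2% of pooled peaks in the series. Another 9 were found in replicate 3 alone, 6 in replicate 4 alone and 4 in neither. Thresholded peaks, 98.8% of them overlapped in both, made up 21.0% of the series list but 8.11% here. The 66.2% is therefore not a like-for-like share. Each replicate also had summits of its own with no pooled peak, 6 in replicate 3 and 8 in replicate 4, none with a rank better than 17209. The pooled peaks at 393722 and 393927 were overlapped by the same replicate 4 peak, and for those at 406271 and 406547 the strongest overlapping replicate 3 peak was the same, although replicate 3 has a weaker summit of its own at 406558.

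Between yar and the start of sc, the weak summits nearer ac leaned to replicate 3 and those nearer sc to replicate 4. Of the 18 summits found in both replicates, 14 had a scaled log2 ratio below 0 and 4 above it, with a median of -0.355 and a range of -1.28 to 0.83. Over the 19870 such peaks of the pooled list the median was -0.0229, the SD 0.628 and the share below 0 51.6%. From yar to 379758, all 5 summits found in both replicates were relatively stronger in replicate 3, with ratios of -0.94, -0.89, -0.78, -0.70 and -0.61. At 390513, the next of them towards sc, the ratio was 0.83, and the 4 pooled summits from there to the start of sc were overlapped in replicate 4 alone. Of these 4, those at 393722 and 393927 shared the same replicate 4 peak. The lowest ratio, -1.28, was at 425754, between l(1)sc and Pgcl, where the pooled signal was 79.8. These stretches were picked after their values were seen, and nothing in the labels says what differed between the replicates.

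**Figure D4:**
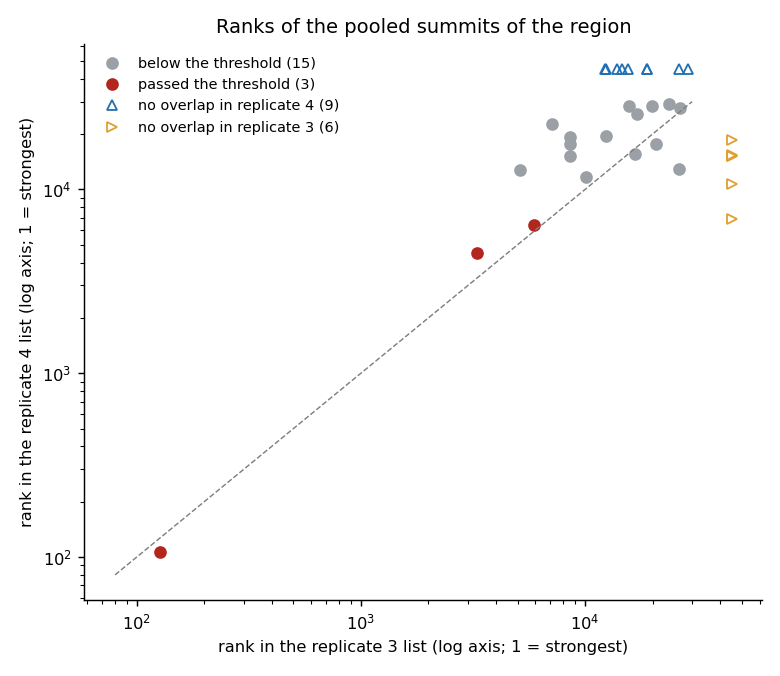
Rank of each pooled summit of the region in the replicate 3 list and in the replicate 4 list, on log axes, with a dashed line of equal rank. The 3 thresholded summits lie close to the line, at best with ranks 127 and 106; most grey points (below the threshold) lie above it, and open triangles mark the 9 and 6 summits found in a single replicate.

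Motifs were read within 100 bp of each summit, on both strands. The 12-letter su(Hw) site occurred in 1 of the 3 thresholded windows of the region, that downstream of y, against 3.06% of thresholded arm windows. The site reads tgtTGCATActc, lies at chrX:361614-361625 on the plus strand, and its centre is 11.5 bp from the summit. Across the 192 windows with a site, the median distance from summit to site was 21.5 bp, with quartiles of 9.25 and 42.8 bp. Windows with 1 site had a median signal of 286 (185 windows), those with 2 or more 869 (7 windows) and those with none 183 (6081 windows). With its signal of 958.5, the window downstream of y ranked 7th of the 185 with 1 site.

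Allowing 1 mismatch, the window downstream of y held a second match, tatTGCCTActt at chrX:361565-361576 on the plus strand. It departs from the site at position 7, counted from its 5' end, and its centre lies 49.0 bp from that of the exact site. At least 1 such match was found in 11.9% of thresholded arm windows and 2 or more in 1.16% (73 windows). The 73 had a median signal of 316, and the window downstream of y ranked 7th among them. The windows at 444169 and 448536 held none. A match is a run of letters and does not show that su(Hw) was bound.

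**Figure D5:**
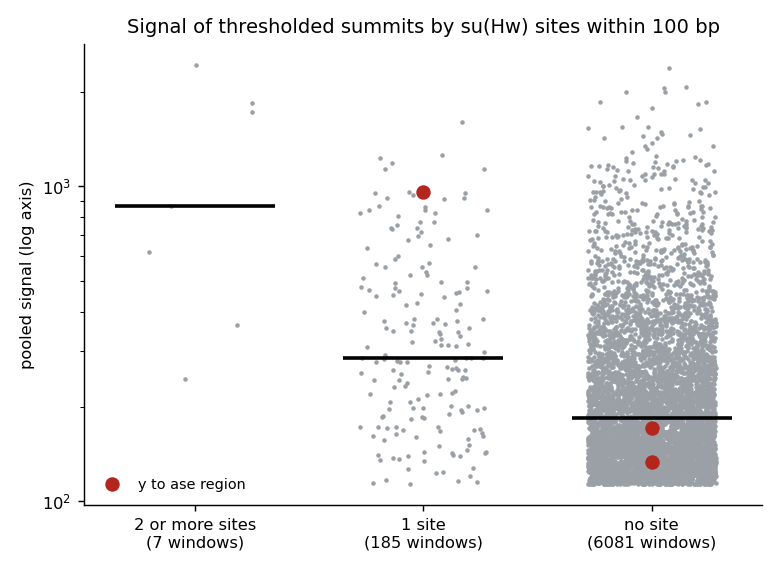
Pooled signal on a log axis of each thresholded arm summit, by the number of exact su(Hw) sites within 100 bp, with black lines at the medians of 869, 286 and 183. The summit downstream of y, the red point in the middle column, lies near the top of its column, and the 2 summits between Pgcl and ase lie below the median of theirs.

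The region held 3 more exact su(Hw) sites, none within 100 bp of a summit of the pooled list. The site tatTGCATAccc, at chrX:372196-372207 on the plus strand between ac and sc, was 252 bp from a pooled summit of 36.5. The site cgcTGCATAtct, at chrX:441474-441485 on the minus strand between Pgcl and ase, was 226 bp from one of 51.9. The site tgcTGCATAttc, at chrX:409945-409956 on the minus strand in the coding exon of l(1)sc, was 1130 bp from the nearest. Of the 4 sites, all with the core TGCATA in capitals, a single one thus lay at a thresholded summit. The core alone, TGCATAC or TGCATAT, occurred 59 times in the region, counting overlapping matches. Of these, 5 were near pooled summits and 2 near thresholded ones. No count expected from the length of the windows was computed for any motif, so these counts are a description. In windows, the core was in 2 of 3, against 12.2% in the series.

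Letters of other proteins were read in the same windows. The GAGA motif given above was in 1 of 3 windows, that at 444169, against 13.6% of thresholded arm windows. CGATA, the letters of the insulator protein BEAF-32, was in 1, that downstream of y, against 28.7%. The CTCF core, AGGTGGCGC or AGATGGCGC, was in none (2.06%), and neither was the DNA replication-related element TATCGATA (3.11%), whose letters include CGATA. The region had 2 matches to that element, and both lay within 100 bp of weak pooled summits between sc and l(1)sc, with signals of 52.6 and 39.2. The window downstream of y had a GC content of 32.3%, against a median of 36.3% over all thresholded windows and 40.0% over the region.

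The proneural proteins themselves bind E-boxes. The proneural E-box, GCAGCTG or GCAGGTG, was in none of the 3 thresholded windows, against 4.91% in the series, and any E-box, CANNTG, in 1 against 60.8%. The region held 42 matches to the proneural E-box, counting overlapping ones, of which 5 lay within 100 bp of a pooled summit. Of these, 3 lay at a single summit at 451286, upstream of ase, whose pooled signal of 32.0 ranked 29734. Those starting at 451243 and 451244 overlap each other on opposite strands. The TATA box, TATAAA, was in 1 thresholded window, that at 448536, against 34.6%. With 3 windows, none of these shares sets the region apart.

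Genes that act with the members were read from a list of proneural regulators, partners and targets other than the members. In it, 29 were matched to the annotation used, and 1, Dl, was not matched by name and so was not analysed. Of the 29, 13 (44.8%) had a thresholded promoter summit and 22 a pooled one, against 18.7% and 35.3% of all genes. Among the 23 with 1 annotated start, 8 (34.8%) had one, against 13.0%. The strongest were chn at 442.3, E(spl)m7-HLH at 310.3, numb at 292.1 and E(spl)m3-HLH at 285.0. The E(spl) genes are bHLH repressors downstream of Notch, numb encodes an inhibitor of Notch signalling, and chn encodes a zinc-finger protein of sensory organ formation. Of the other E(spl) genes in the list, E(spl)mdelta-HLH had 212.2 and E(spl)mbeta-HLH 170.8. E(spl)m8-HLH had 35.3 in the pooled list, below the threshold, and E(spl)m5-HLH and E(spl)mgamma-HLH had no promoter summit in any list. N, which encodes the Notch receptor, had 169.5, and neur, which encodes a ubiquitin ligase of the same pathway, 221.4. The repressors hry and emc, which restrain ac and sc, had 279.0 and 203.6.

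Other genes of the list had no thresholded promoter summit. They include da, whose product is the shared bHLH partner, with a pooled signal of 87.2, and sens, a zinc-finger gene of sensory precursors, with 100.1. The proneural gene amos had no promoter summit in any list, and ara, an activator of ac and sc, had 67.1 in the pooled list. The list was chosen with earlier results known, and it holds more genes with several starts than the members do, so its count is a description.

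Of 21 yellow family and pigment genes other than y, 0 had a thresholded promoter summit, against 18.7% of all genes and, for the 19 with 1 annotated start, 13.0% of such genes. Of the 21, 8 (38.1%) had a pooled promoter summit, against 35.3%. The highest pooled signal was 76.8 at Ddc, which encodes dopa decarboxylase of the melanin and cuticle pathway. In replicate 4, yellow-k had a promoter summit of 61.8 with no pooled counterpart. AANAT1, which encodes the N-acetyltransferase known as speck, and b (black) had none in any list. The promoters of these genes, like that of y, had pooled summits of at most 76.8 or none.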

How the data were processed

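ChIP-seq of mod(mdg4)-GFP was analysed from the dm6 peak lists of 2 biological replicates (numbers 3 and 4, 1 group), of both pooled, and of the peaks that passed the authors' IDR threshold. Per the labels, the GFP fusion was precipitated with an anti-GFP antibody from sonicated chromatin. The peak signal is, as deposited by the authors, a caller's score per peak, read here as enrichment over a control from the narrowPeak layout, and the -log10 q is read as their significance value. No source used here names the caller, the control library behind each list, the IDR threshold or the handling of multi-mapping reads. The control reads and the dm3 lists were not used here, and sequencing depth is unknown, so no intervals that need it are given.

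Computed here were counts, ranks, distances, scaled replicate ratios and motif matches. Peaks were placed by their summits, counted from 1. Mitochondrial peaks were kept in ranks and left out of shares over the arms. Replicate peaks were matched by an overlap of at least 1 bp, taking the strongest. Where a summit lay in several features, exons came before introns. Genes came from Ensembl release 115 and sequence from RefSeq Release 6, both on dm6. Python 3.11.15, NumPy 2.4.6, pandas 2.3.3 and matplotlib 3.10.9 were used, and the counting and matching steps were tested on simulated data. With 1 group no test between conditions was possible, and no p-value was computed.

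The genes named are the 5 members, all protein-coding genes of the region and those nearest to thresholded summits, and of each other list up to 4 with the strongest promoter summit and up to 2 without one in alphabetical order. Others (N, neur, hry, emc, da, sens, the other E(spl) genes, Ddc and yellow-k) were named after their values were seen, and Dl as the gene not analysed. The members, lists and motifs were chosen with earlier results of these data known. Alternatives varied the flank, the promoter distance, the window, the overlap, the scaling and the list, and left out each replicate.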

Additional observations from a re-analysis of the deposited data

How the results depend on the processing

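Of 65 recomputed values, 7 moved and 58 did not. A count was taken as alike within 1.5 times the reported one, a log2 replicate ratio within 1 SD and a percentile rank difference, on another scale, by its sign alone, so some of the 58 changed within these limits (37 pooled summits became 46 with a flank of 20 kb). With the stronger 0.5 of the thresholded list, the region kept 1 summit, that downstream of y, its density fell to 0.789 per 100 kb, 1 window held the su(Hw) core, and 8 proneural genes had a promoter summit. With starts within 250 bp, 8 proneural genes had one as well. With a window of 50 bp, 1 window held the core. Using the strongest peaks of a single replicate, as many as the threshold passed, gave 2 summits without replicate 3 and 4 without replicate 4. The same change gave 1 and 0 yellow family and pigment genes, and 10 and 12 proneural genes. No alternative gave any member a promoter summit, but each used the thresholded list, its stronger part or as many peaks of another list. The full pooled and replicate lists did give some, as stated above. Matches with at most 1 mismatch were added after seeing the data and left the count of windows with a su(Hw) site at 1. The causes were not tested. No paired analysis was possible because there is 1 group. Unknown depth limits all statements on weak summits, and the summits below the threshold should be read as candidates from lists that also hold background.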

Other observations

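The rest of the region held little. The widest stretch between neighbouring pooled summits of the region was 16.0 kb, from 425754 to 441706, against a median spacing of 1.95 kb. It contains Pgcl and the only long transposable element annotated there, a copy of the retrotransposon 3S18 of 6.13 kb at chrX:428474-434600, which held 0 summits in each of the 4 lists. Outside that element, the stretch held 4 weak summits found in a single replicate, at 426316 (27.4) and 437564 (22.0) in replicate 3 and at 438040 (18.1) and 439783 (16.1) in replicate 4. How reads from repeated elements were placed is not given in the labels, so within the element a lack of binding and a lack of uniquely placed reads cannot be told apart here. The 7 annotated elements of the region are this one and copies of INE-1, and no gypsy copy is among them. These are elements of the reference genome, and insertions in the line used were not examined. To the right of 457930 no pooled summit remained up to the edge of the region, so the full length of that stretch was not measured. It holds ase, Cyp4g1, a gene of cuticular hydrocarbon synthesis, and the end of ebo.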
